A study of Mus musculus with 12 samples.

Results

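The genes described here encode the cytosolic translation initiation factors (eIFs) and elongation factors (eEFs) of the mouse, together with a few kinases and enzymes named after them. They were taken by symbol, as every gene beginning with Eif1 to Eif6 or with Eef except Eif4ebp1 and Eif2ak3. For 57 of them the array holds a probe named here, and 47 were measured, among 9181 genes measured in all. A gene counted as measured when its brightest probe lay above background on at least 2 of the 12 samples. Another 10 did not pass. Eef1a1 was above background on 1 sample, and Eif1ax, Eif2ak4, Eif3e, Eif3m, Eif4e1b, Eif4ebp3, Eif5a2, Eif5b and Eef1akmt2 on 0. Eif2s1 and Eif4g1, which encode the alpha subunit of eIF2 and the main scaffold of the cap-binding complex, have no probe named here and are not analysed here.

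RNA was measured on Illumina expression arrays in cells sorted by green fluorescence from dissociated islets of heterozygous Pdx1-GFP transgenic mice crossed with ICR, a background shared by all groups. Pdx1 is a transcription factor of the pancreas, so its promoter marks the sorted cells and no sample comes from cells without the transgene. There were 4 samples at E18.5, just before birth, 3 at postnatal day 1 (P1), 2 at postnatal day 10 (P10) and 3 from adults of 5 weeks. Whether samples of an age are separate litters is not in the labels; p-values therefore rest on a spread that may be technical, and the number of arrays limits the precision.

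Translation starts when eIF2 brings the initiator tRNA to the small ribosomal subunit, which is held open by eIF3, eIF1 and eIF1A, while eIF4E binds the cap of the mRNA and the helicase eIF4A unwinds its leader. eIF5 and eIF2B drive the GTP cycle of eIF2, and kinases that phosphorylate eIF2 slow that cycle. During elongation eEF1A delivers each aminoacyl-tRNA, the eEF1B subunits recharge it with GTP, and eEF2 moves the ribosome on. Beta cells make insulin in large amounts, and their initiation rate is known to respond to glucose and to stress of the endoplasmic reticulum.

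Levels are log2 values of quantile-normalized intensity, and a level of one probe cannot be set against that of another. Differences are later minus earlier age in log2 units ± standard error, from limma on all 12 samples, with p-values adjusted over the 9181 genes and a threshold of 0.05. The share of probes above background was 40.0% to 48.3% per array. All 9 beta cell markers were measured, with mean levels of 9.35 to 9.53 at E18.5 and 9.96 to 10.20 in adults. From E18.5 to adult, Ucn3, a peptide of mature beta cells, went from between 6.49 and 6.92 to between 9.70 and 10.14, and all adult samples of G6pc2 and Iapp were also above all E18.5 samples. Nkx6-1 went from between 9.69 and 10.11 to between 9.19 and 9.53, and the ages overlapped for Ins2, Pdx1, Mafa, Neurod1 and Slc2a2. Markers of acinar cells, the enzyme-secreting cells of the pancreas, were also present. Their mean level over 21 measured of 25 listed genes was 5.05 to 6.57 before birth and 5.46 to 7.54 at P1, but 9.62 to 11.03 at P10 and 10.06 to 11.47 in adults. No P10 or adult sample overlapped an earlier one, so for P10 against P1 and for adults against E18.5 the age and the acinar level cannot be told apart. Markers of other islet cells had means of 9.28 to 10.51 before birth, 9.76 to 10.13 at P1 and 9.41 to 9.93 at P10, and of 7.66 to 9.42 in adults. Over the same ages 3 measured markers of dividing cells had means of 6.97 to 7.67, 5.94 to 6.83, 6.89 to 7.22 and 5.13 to 5.72. The single markers of other islet cells differed. From E18.5 to adult, Ghrl went from between 8.20 and 10.61 to between 4.32 and 4.62. Irx2 went from between 5.65 and 6.86 to between 4.72 and 5.41. Gcg, Ppy, Sst and Hhex overlapped between these ages. Each of them was lowest in adult replicate 3, at 9.36, 8.85, 12.52 and 5.91. In such sorted samples a change in the mix of cells and a change of RNA per cell cannot be told apart.

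Across the 4 ages, 22 of the 47 translation factors passed the moderated F-test, or 46.8%, beside 43.9% of all genes tested. By that share the factors changed about as often as the array as a whole. Their direction is given in the comparison of each age with the next. At P1, 3 of 47 were higher than at E18.5 and 0 lower, or 6.38% called beside 5.48% of all genes (2.59% higher and 2.89% lower). At P10, 0 were higher than at P1 and 6 lower, or 12.8% called beside 11.7% of all genes (5.57% higher and 6.14% lower). In adults, 0 were higher than at P10 and 5 lower, or 10.6% called beside 13.5% of all genes (6.09% higher and 7.41% lower). Over the whole span from E18.5 to adult, 3 were higher and 16 lower, or 40.4% called beside 40.8%. Of these, 34.0% of the factors were lower, beside 22.1% of all genes, and 6.38% were higher, beside 18.7%. At an unadjusted p under 0.05, limma placed 8 factors higher and 2 lower at P1, beside 925 and 988 of all 9181 genes. At P10 it placed 2 higher and 12 lower, beside 1147 and 1218 of all genes. In adults against P10 the counts were 2 higher and 9 lower, beside 1196 and 1321. In adults against E18.5 they were 5 higher and 18 lower, beside 2074 and 2386. In all, 24 factors passed neither the F-test nor any of the 4 comparisons.

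**Figure D1:**
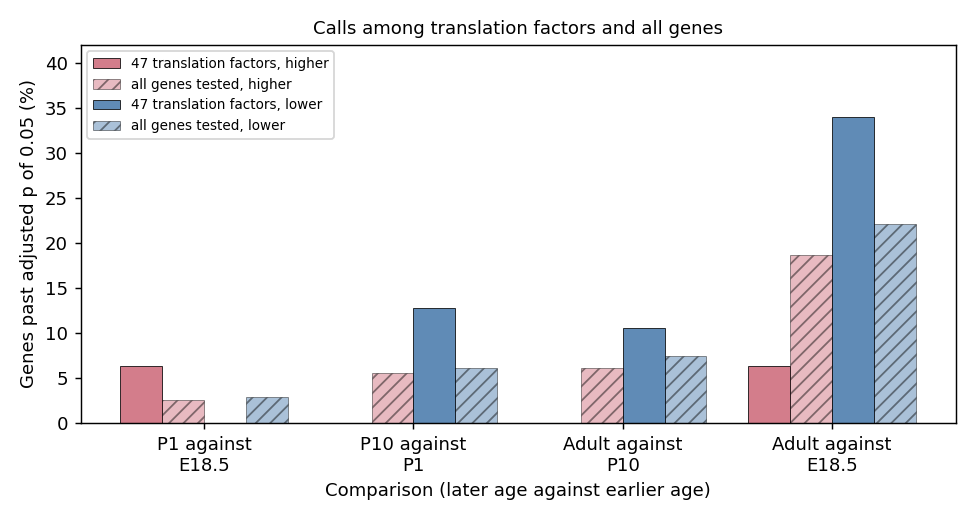
Bars give the share (percent) of the 47 translation factors and of all 9181 genes tested that passed the threshold, by comparison and direction. From P1 to P10 and from P10 to adult the called factors were all lower, 6 and 5 of 47, and from E18.5 to adult 16 were lower and 3 higher.

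The median difference over the factors was 0.05 from E18.5 to P1, -0.13 from P1 to P10, -0.12 from P10 to adult and -0.21 from E18.5 to adult, beside medians between -0.01 and 0 over all genes. Of the 47, 34 lay below 0 from P1 to P10, or 72.3%, beside 49.9% of all genes. From P10 to adult 29 did, or 61.7%, beside 51.1%, and from E18.5 to adult 34, or 72.3%, beside 51.5%. The age with the highest mean was P1 for 18 of 47 factors, or 38.3%, beside 22.8% of all genes. The age with the lowest mean was the adult for 24 of them, or 51.1%, beside 34.7% of all genes. These are descriptions, since the factors were not compared with other genes by a test.

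**Figure D2:**
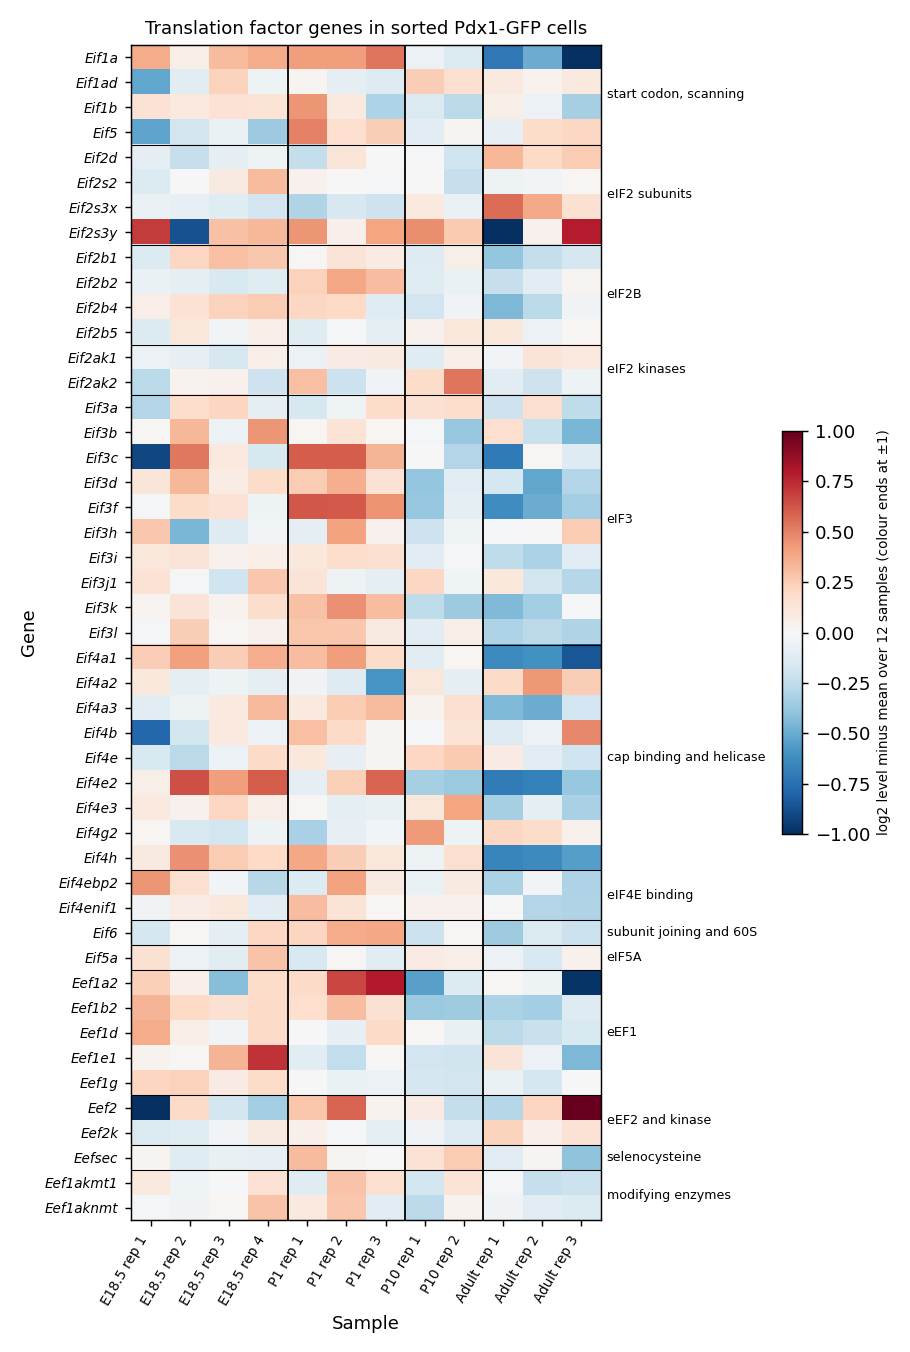
Each row is 1 of the 47 measured factors, grouped by role, and each column 1 of the 12 samples; the colour is the log2 level minus the gene's mean over the samples. Many rows, such as Eif4a1, Eif1a and Eif3f, are low in the 3 adult samples, with colours ending at 1 unit either way, and Eif2s3y is lowest in adult replicate 1.

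The eIF3 complex, the scaffold that binds the small subunit and receives the mRNA, had 10 measured members. From E18.5 to P1, 1 of them rose, from P1 to P10 3 fell, from P10 to adult 0 passed by limma (1 lower at an unadjusted p under 0.05), and over the whole span 5 fell and 0 rose. These are 10%, 30%, 0% and 50% called, beside 5.48%, 11.7%, 13.5% and 40.8% of all genes. Eif3f, a subunit with a protease-like fold, went both ways. Its levels were 11.12, 11.31, 11.27 and 11.08 at E18.5, then 11.75, 11.74 and 11.58 at P1, 10.75 and 11.03 at P10, and 10.51, 10.63 and 10.78 in adults. All P1 samples lay above all others, and all P10 and adult samples lay below all E18.5 samples. Eif3f rose by 0.49 ± 0.11 at P1, or 1.41-fold (adjusted p = 0.021). It then fell by 0.80 ± 0.13 to P10, or 1.74-fold (adjusted p = 0.0015), and its adult level was 1.47-fold below E18.5 (adjusted p = 0.0011). The rise lost its call without E18.5 replicate 4, P1 replicate 1 or P1 replicate 2 (adjusted p from 0.061 to 0.10).

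Eif3k, a small peripheral subunit, stood at 8.72, 8.82, 8.73 and 8.87 at E18.5 and at 8.99, 9.15 and 9.00 at P1, then at 8.44 and 8.33 at P10 and 8.25, 8.35 and 8.67 in adults. P1 was again the highest age, and no P10 or adult sample reached the E18.5 samples. The fall from P1 to P10 was 1.58-fold (-0.66 ± 0.13, adjusted p = 0.005), and adults were 1.29-fold below E18.5 (adjusted p = 0.017). Eif3d, a subunit that can bind the mRNA cap, fell 1.41-fold from P1 to P10 (-0.50 ± 0.14, adjusted p = 0.031), from 10.38, 10.49 and 10.27 to 9.74 and 10.02. Its adult levels of 9.95, 9.61 and 9.83 stayed below the 10.20 to 10.46 of E18.5, a difference of -0.51 ± 0.12 (adjusted p = 0.003). Eif3l, which pairs with the Eif3k protein in the complex, and Eif3i, a subunit built of WD repeats, were 1.29-fold and 1.24-fold lower in adults than at E18.5 (adjusted p = 0.010 and 0.014). The other 5 subunits passed in no comparison. Among them Eif3a, the largest core subunit, differed by -0.10 between adults and E18.5 with a 95% interval from -0.41 to 0.21, so a change of either sign within that range remains possible. Eif3c, another core subunit, had wide spread, with 6.59 in E18.5 replicate 1 beside 7.34 to 8.03 in the other E18.5 samples.

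The calls in this group depended on single samples in places. From P1 to P10, that of Eif3k ended without P10 replicate 2 (adjusted p = 0.059), and that of Eif3d without P1 replicate 1, P1 replicate 2 or P10 replicate 1 (adjusted p from 0.066 to 0.28). From E18.5 to adult, that of Eif3k ended without adult replicate 1 or 2 (adjusted p from 0.063 to 0.080) and that of Eif3i without adult replicate 2 (adjusted p = 0.069). With the mean acinar marker level as an added term, Eif3f differed between P1 and P10 by -0.54 (adjusted p = 0.50), Eif3k by -0.69 (adjusted p = 0.38) and Eif3d by -0.16 (adjusted p = 0.90), while the Eif3f rise at P1 remained called. All 6 calls from P1 to P10 ended with that term, which left 45 of all genes called, or 0.49%. The other 3 differences were as large with it or larger, at -0.64 for Eef1b2 (adjusted p = 0.35), -0.84 for Eif1a (adjusted p = 0.34) and -0.52 for Eif2b2 (adjusted p = 0.45).

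**Figure D3:**
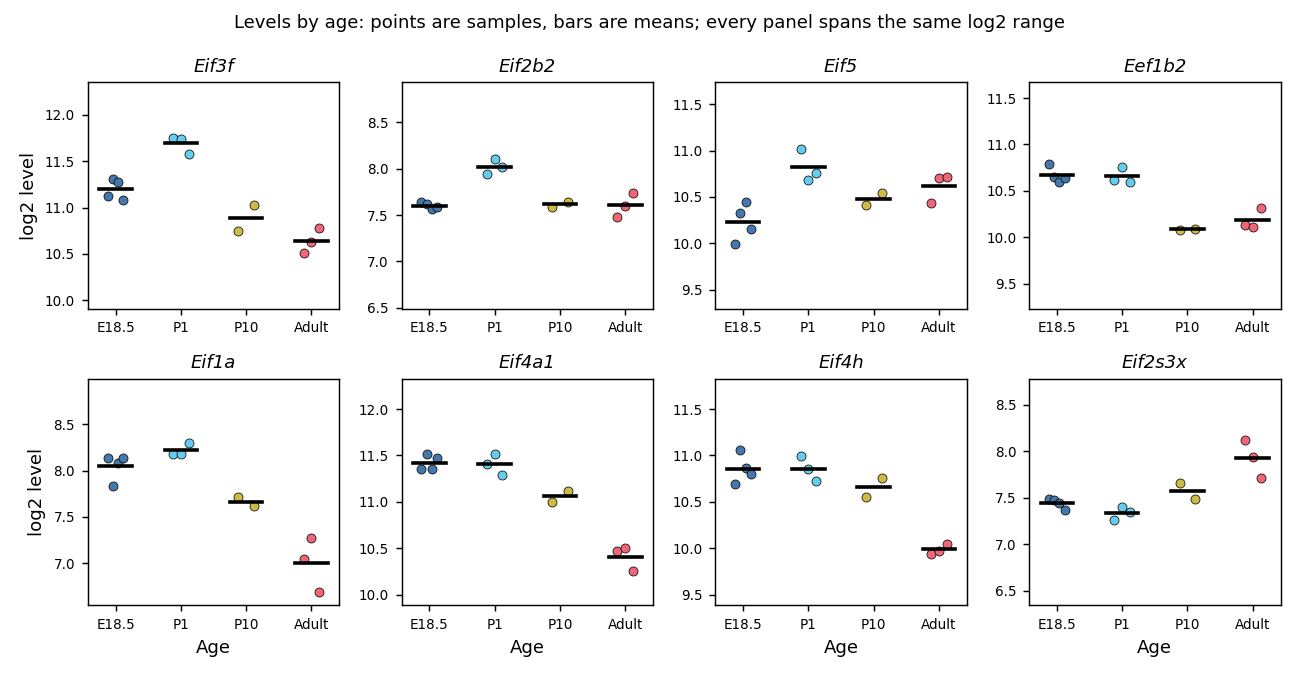
Each panel shows 1 gene, with the log2 level of each sample as a point and the mean of each age as a line, over E18.5 (4 samples), P1 (3), P10 (2) and adult (3). Eif3f and Eif2b2 peak at P1, Eif5 rises at P1, Eef1b2 is lower from P10 on, Eif1a, Eif4a1 and Eif4h are lowest in adults, and Eif2s3x is highest in adults.

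Many mRNAs of the translation machinery are known to begin with a C followed by pyrimidines, the 5′ terminal oligopyrimidine motif, through which mTORC1 controls their translation. The start regions of the factors that fell from P1 to P10 are shown for that reason, for 5 of the 6, since Eif1a has no entry in the table used. Each stretch runs from 40 bases before to 20 bases from the annotated start, from RefSeq on GRCm38.p6, and capitals mark a run of C followed by at least 4 further C or T whose first base lies within 5 bases of that start. They lie at chr7:108934375-108934434 on the plus strand for Eif3f, at chr12:85219441-85219500 on the plus strand for Eif2b2, at chr1:63176791-63176850 on the plus strand for Eef1b2, at chr15:77970805-77970864 on the minus strand for Eif3d and at chr7:28981869-28981928 on the minus strand for Eif3k.
Eif3f: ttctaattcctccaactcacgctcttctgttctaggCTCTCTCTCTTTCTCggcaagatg
Eif2b2: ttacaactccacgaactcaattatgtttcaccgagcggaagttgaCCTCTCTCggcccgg
Eef1b2: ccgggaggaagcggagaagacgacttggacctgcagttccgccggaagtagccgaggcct
Eif3d: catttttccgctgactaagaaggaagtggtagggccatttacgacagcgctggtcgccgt
Eif3k: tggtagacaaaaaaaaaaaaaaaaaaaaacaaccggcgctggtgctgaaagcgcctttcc
Eif3f has a run of 15 bases and Eif2b2 one of 8, and both were called higher at P1 and lower at P10. Eef1b2, Eif3d and Eif3k hold no such run there, nor does Eif5, the other factor called higher at P1. The genes were chosen by their calls in these data, and a link between the run and RNA levels was not tested. Over the 38 factors with an entry, 10 hold one, or 26.3%, beside 23.9% of the 7490 tested genes with an entry, so the run was about as common in the factors as elsewhere on the array. A match describes letters at an annotated start and not a measured transcript start.

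The cap-binding and helicase group had 9 measured members. From E18.5 to P1 and from P1 to P10 0 passed by limma (0 and 4 at an unadjusted p under 0.05), while from P10 to adult 4 fell and over the whole span 5 fell. The last 2 counts are 44.4% and 55.6% of the group, beside 13.5% and 40.8% of all genes called in either direction. Eif4a1, the main helicase that unwinds leaders, gave the smallest p of all the factors. It stood at 11.35, 11.51, 11.35 and 11.47 at E18.5, at 11.41, 11.52 and 11.29 at P1, at 11.00 and 11.12 at P10, and at 10.47, 10.50 and 10.25 in adults. The adult samples lay below all others. A second, dimmer probe differed by -0.52 from P1 to P10, by -0.34 from P10 to adult and by -0.83 over the whole span. On the brightest probe the difference from P1 to P10 was -0.34 and was not called. There the fall from P10 was 0.65 ± 0.12, or 1.57-fold (adjusted p = 0.0028), and from E18.5 it was 1.01 ± 0.10, or 2.02-fold (adjusted p = 3e-06). Among all 33 calls made here, that from P10 to adult was the only one that remained in all 11 other settings and with any 1 of the 12 samples left out, with an adjusted p of at most 0.046.

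Eif4h, whose protein stimulates that helicase, moved with it. Its levels were 10.69, 11.06, 10.86 and 10.80 at E18.5, 10.99, 10.85 and 10.72 at P1, 10.55 and 10.76 at P10, and 9.94, 9.97 and 10.05 in adults. No adult sample overlapped any earlier one. It fell 1.59-fold from P10 (-0.67 ± 0.13, adjusted p = 0.0043) and 1.82-fold from E18.5 (-0.87 ± 0.11, adjusted p = 3e-05). Eif4a3, a related helicase of the exon junction complex that marks spliced mRNA, fell 1.39-fold from P10 (adjusted p = 0.046), from 8.53 and 8.65 to 8.05, 8.00 and 8.30. It was 1.36-fold below E18.5 in adults (adjusted p = 0.010).

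Among the cap-binding proteins, Eif4e itself did not pass. Its levels lay between 5.06 and 5.59 in all samples, and adults differed from E18.5 by 0.00 with an interval from -0.26 to 0.25. The probe was dim, with a mean of 5.33, though above background on 12 samples, which limits what can be seen. Relatives of Eif4e did change. Eif4e2, which binds caps and represses translation, stood at 7.38, 7.96, 7.74 and 7.92 at E18.5 and at 6.62, 6.64 and 6.94 in adults, 2.02-fold lower (-1.02 ± 0.17, adjusted p = 0.00024), with P10 between them at 6.99 and 6.95. Eif4e3, another cap-binding relative, stood at 8.37 and 8.65 at P10 and at 7.92, 8.16 and 7.93 in adults, 1.42-fold lower (adjusted p = 0.016), and adults were 1.28-fold below E18.5 (adjusted p = 0.014). The other probes of both genes followed in part. From E18.5 to adult those of Eif4e2 differed by -0.45 and 0.16, and those of Eif4e3 by -0.35 and 0.09. Eif4b, a cofactor of the helicase, and Eif4g2, a scaffold related to eIF4G, passed in no comparison.

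Acinar marker levels of P10 and adults overlap, with means of 10.32 and 10.66, so an added term for that level can move their comparison little. With the term 12.2% of all genes were called from P10 to adult, beside 13.5% in the main fit. Dividing cell markers did not overlap between these ages, at 6.89 to 7.22 and 5.13 to 5.72. Their part in the falls was not tested. With the acinar term 4 of the 5 calls from P10 to adult remained. Their differences were -0.65 for Eif4a1 (adjusted p = 0.0053), -0.64 for Eif4h (adjusted p = 0.0060), -0.69 for Eif1a (adjusted p = 0.012) and -0.50 for Eif4e3 (adjusted p = 0.025). The call of Eif4a3 ended (adjusted p = 0.068). Without P10 replicate 2 only Eif4a1 remained, with adjusted p of 0.076 for Eif4h, 0.064 for Eif1a and 0.20 for Eif4e3. Without P10 replicate 1 that of Eif1a ended too (adjusted p = 0.093), and that of Eif4a3 ended without any of 8 samples (adjusted p from 0.052 to 0.26). From E18.5 to adult the Eif4e3 call ended without adult replicate 1 or 3 (adjusted p from 0.052 to 0.053).

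Eif4a2 encodes a close relative of Eif4a1 and was set beside it after the values of both were seen. It stood at 11.11, 10.91, 10.96 and 10.92 at E18.5, at 10.97, 10.88 and 10.42 at P1, at 11.12 and 10.91 at P10, and at 11.20, 11.44 and 11.25 in adults. The adult samples lay above all earlier ones, by 0.32 ± 0.13 over E18.5, which did not pass the threshold (adjusted p = 0.066). It passed in 5 other settings or left-out samples, with the mean of its probes (0.51, adjusted p = 0.0021) and without P1 replicate 3 (adjusted p = 0.027) among them, and a second probe differed by 0.70. Within each array, Eif4a1 minus Eif4a2 averaged 0.45 ± 0.16 (SD, n = 4) at E18.5 and -0.89 ± 0.14 (SD, n = 3) in adults, a change of -1.34. Between P10 and adults the difference changed by -0.94. No test is given, since the pair was chosen for these values. Only the change of this difference can be read, since its level depends on the probes.

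**Figure D4:**
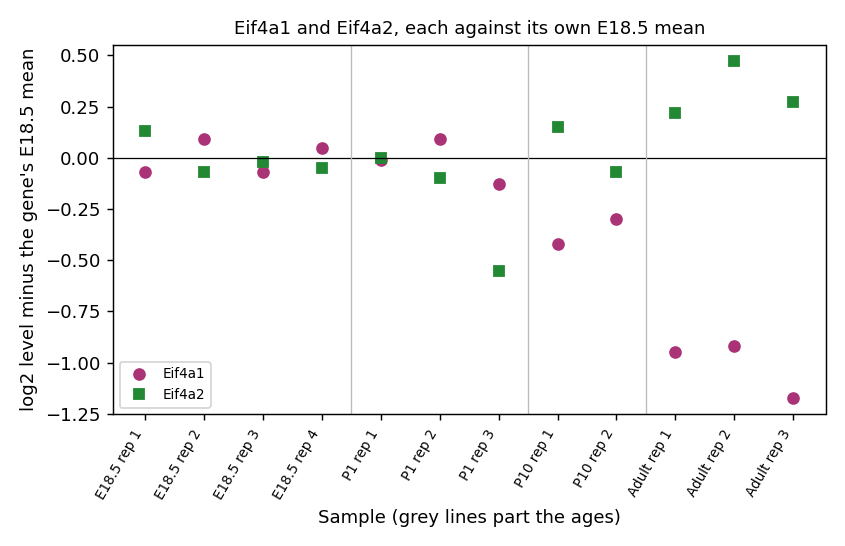
Log2 levels of Eif4a1 (circles) and Eif4a2 (squares) in each of the 12 samples, each minus its own mean over the 4 E18.5 samples. In the 3 adult samples Eif4a1 lies below 0 and Eif4a2 above it, and the change of their within-array difference from E18.5 to adult was -1.34.

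A second element was looked for in the same promoters, the letters CACGTG, which read the same on both strands and are known as a binding sequence of MYC and related factors. It is shown for Eif4a1 and Eif4h, the pair that fell most clearly from P10 to adult, and for Eif3f and Eif3k, with 30 bases on either side of the capitals that mark it. The stretches lie on GRCm38.p6 (RefSeq) at chr11:69672577-69672642, minus strand, for Eif4a1, at chr5:134639470-134639535, minus strand, for Eif4h, at chr7:108934317-108934382, plus strand, for Eif3f and at chr7:28981897-28981962, minus strand, for Eif3k.
Eif4a1: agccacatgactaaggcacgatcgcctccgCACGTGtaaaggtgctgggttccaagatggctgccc
Eif4h: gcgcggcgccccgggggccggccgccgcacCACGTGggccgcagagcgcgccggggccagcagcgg
Eif3f: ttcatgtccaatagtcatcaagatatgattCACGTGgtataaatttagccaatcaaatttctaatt
Eif3k: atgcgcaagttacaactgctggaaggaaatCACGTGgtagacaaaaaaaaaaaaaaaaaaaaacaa
The motif starts 189 bases before the annotated start in Eif4a1, 96 in Eif4h, 68 in Eif3f and 44 in Eif3k. In the 300 bases from 250 before to 50 after the start it occurs in 11 of the 38 factors with an entry, or 28.9%, beside 11.7% of the tested genes with an entry. The other 7 are Eef1aknmt, Eef2, Eef2k, Eif1b, Eif3a, Eif4e and Eif5a, none of which passed in any comparison. Of the 11 factors with an entry that fell from E18.5 to adult, 4 hold it, or 36.4%, beside 28.9% of the 38 factors. These 4, which have a call and hold the motif, are the ones shown. A link between the motif and RNA levels was not tested.

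Among the factors of scanning and start codon choice, Eif1a encodes eIF1A, which holds the small subunit ready for scanning. It had the largest fall over the whole span. Its levels were 8.14, 7.83, 8.08 and 8.14 at E18.5, 8.18, 8.18 and 8.30 at P1, 7.71 and 7.62 at P10, and 7.05, 7.27 and 6.69 in adults. Each step after P1 separated the samples completely, 1.47-fold down to P10 (-0.55 ± 0.16, adjusted p = 0.033) and 1.59-fold down again to adults (-0.67 ± 0.16, adjusted p = 0.011). Adults were 2.06-fold below E18.5 (-1.04 ± 0.13, adjusted p = 2.3e-05). The step from P1 to P10 lost its call without any 1 of the P1 and P10 samples (adjusted p from 0.060 to 0.19), and that from P10 to adult without either P10 replicate (adjusted p from 0.064 to 0.093).

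Eif5, which makes eIF2 hydrolyse its GTP at the start codon, went the other way. It stood at 9.99, 10.33, 10.45 and 10.15 at E18.5 and at 11.02, 10.68 and 10.76 at P1, with no overlap, a rise of 0.59 ± 0.13 or 1.51-fold (adjusted p = 0.019). Its other probes differed by 0.22 and 0.24, and with the mean of its probes the difference was 0.35 and did not pass (adjusted p = 0.15). Later it stood at 10.41 and 10.54 at P10 and at 10.43, 10.70 and 10.72 in adults, 1.31-fold above E18.5 (adjusted p = 0.028), although adult replicate 1 lay below E18.5 replicate 3. The rise at P1 lost its call without E18.5 replicate 4, P1 replicate 1 or P1 replicate 2 (adjusted p from 0.051 to 0.069), and the adult difference without E18.5 replicate 1 or 4 or adult replicate 2 or 3 (adjusted p from 0.062 to 0.097). Eif1b and Eif1ad, relatives of eIF1 and eIF1A, passed in no comparison.

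Of the eIF2 subunits and related genes, 2 of 4 were higher in adults than at E18.5 and 0 lower. That is 50% called, beside 40.8% of all genes. Eif2s3x, the X-linked gene of the gamma subunit that binds GTP and the initiator tRNA, stood at 7.49, 7.48, 7.44 and 7.37 at E18.5, 7.26, 7.40 and 7.35 at P1, 7.66 and 7.49 at P10, and 8.12, 7.94 and 7.71 in adults. The adult samples lay above all others, by 0.48 ± 0.11 or 1.39-fold over E18.5 (adjusted p = 0.0028). Eif2s3y, its Y-linked copy, stood between 6.31 and 7.96 in 11 samples and at 4.28, not above background, in adult replicate 1. Xist, the RNA of the inactive X chromosome, was 8.66 in that sample, beside 6.13 and 4.85 in the other adults and 5.39 to 7.26 in the earlier samples. Of other Y-linked genes, Kdm5d was lowest in adult replicate 1, at 4.44 beside 4.78 to 6.10, while Uty was 4.75 in it, beside 4.63 to 5.23. Without that sample the adult difference of Eif2s3x still passed, as it did with any other sample left out (adjusted p of at most 0.016). Over the 3 adults Eif2s3x had the same order as Xist. The labels used here give no sex, and the part of sex in the Eif2s3x and Eif2s3y values was not tested. Eif2d, which can bring the initiator tRNA to some mRNAs and helps to recycle ribosomes, was 1.30-fold higher in adults than at E18.5 (adjusted p = 0.011), with 7.20, 7.07 and 7.12 above 6.64 to 6.82. Eif2s2, the beta subunit, differed by -0.08 with an interval from -0.32 to 0.16.

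The exchange factor eIF2B, which returns eIF2 to its GTP form and is the point where stress signalling acts, had 4 measured subunits. Eif2b2, its beta subunit, was flat except at P1. It stood at 7.64, 7.62, 7.56 and 7.59 at E18.5, 7.94, 8.10 and 8.02 at P1, 7.59 and 7.64 at P10, and 7.48, 7.60 and 7.74 in adults. The P1 samples lay above all others. It rose 1.33-fold at P1 (0.41 ± 0.09, adjusted p = 0.022) and fell 1.32-fold to P10 (-0.40 ± 0.11, adjusted p = 0.032). The rise lost its call without E18.5 replicate 3 or 4 or P1 replicate 2 or 3 (adjusted p from 0.056 to 0.12), and the fall without P1 replicate 2 or 3 or either P10 replicate (adjusted p from 0.068 to 0.18). Eif2b1 and Eif2b4, the alpha and delta subunits of its regulatory core, were each 1.35-fold lower in adults than at E18.5 (adjusted p = 0.010 and 0.011), and that of Eif2b4 ended without adult replicate 1 (adjusted p = 0.058). With the acinar marker level as an added term Eif2b1 differed by -0.10 (adjusted p = 0.93) and Eif2b4 turned to 0.06 (adjusted p = 0.96). Eif2b5, the catalytic subunit, stood between 7.97 and 8.22 in all 12 samples, a difference of 0.02 from E18.5 to adult with an interval from -0.19 to 0.23.

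The eIF2 kinases Eif2ak1, which senses haem, and Eif2ak2, which senses double-stranded RNA, passed in no comparison. The nearest was Eif2ak2, with 7.60 and 7.95 at P10 and 7.31, 7.21 and 7.37 in adults (-0.48 ± 0.16, adjusted p = 0.067), which passed without P1 replicate 1 (adjusted p = 0.043). The eIF4E-binding genes Eif4ebp2, which blocks eIF4E when unphosphorylated, and Eif4enif1, which carries eIF4E into the nucleus, also passed in none. Eif6, which keeps the large ribosomal subunit from joining too early, passed the F-test (adjusted p = 0.0094) and no single comparison. It stood at 8.87, 9.06, 8.96 and 9.25 at E18.5, 9.26, 9.42 and 9.43 at P1, 8.83 and 9.06 at P10, and 8.69, 8.90 and 8.83 in adults, so that P1 was the highest age with no overlap. Its difference from P1 to P10 of -0.43 ± 0.14 did not pass (adjusted p = 0.054) but did in 8 other settings or left-out samples, those without E18.5 replicate 1 or 4 included (adjusted p from 0.021 to 0.048). Eif5a, which helps ribosomes through difficult peptide bonds, lay between 9.00 and 9.44 throughout.

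Of the elongation factors, 5 members of the eEF1 group were measured, and 3 fell from E18.5 to adult, or 60% called beside 40.8% of all genes. The 3 are the subunits of eEF1B. Eef1b2, the exchange subunit eEF1B alpha, stepped down after P1, from 10.79, 10.65, 10.60 and 10.64 at E18.5 and 10.62, 10.76 and 10.60 at P1 to 10.08 and 10.09 at P10 and 10.13, 10.11 and 10.32 in adults. The earlier and the later samples did not overlap. The fall from P1 to P10 was 1.49-fold (-0.58 ± 0.12, adjusted p = 0.0053), and adults were 1.40-fold below E18.5 (-0.48 ± 0.10, adjusted p = 0.0013). Its other probes differed by -0.61 and -0.47 from P1 to P10. Eef1d and Eef1g, the delta and gamma subunits, were 1.29-fold and 1.20-fold lower in adults (adjusted p = 0.019 and 0.034), but a second, dimmer probe of Eef1d differed by 0.01. The Eef1b2 fall to P10 lost its call without P10 replicate 1 (adjusted p = 0.056), Eef1d without E18.5 replicate 1 or adult replicate 1 or 2 (adjusted p from 0.051 to 0.057), and Eef1g without E18.5 replicate 1, 2 or 4 or adult replicate 1 or 2 (adjusted p from 0.056 to 0.13).

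Eef1a2, the form of eEF1A known from muscle and nerve, passed the F-test (adjusted p = 0.031). It stood at 6.65, 7.13 and 7.25 at P1 and at 5.92 and 6.32 at P10, a difference of -0.89 ± 0.28 that did not pass (adjusted p = 0.053). It did pass in 7 other settings or left-out samples, those without E18.5 replicate 3, P1 replicate 1 or adult replicate 1 or 3 included (adjusted p from 0.014 to 0.045). Eef1e1, which belongs to the synthetase complex, passed in no comparison. Eef2, the translocase, stood at 6.93, 8.51, 8.13 and 7.97 at E18.5, 8.59, 8.90 and 8.35 at P1, 8.40 and 8.08 at P10, and 8.03, 8.53 and 9.37 in adults. It varied more within an age than most factors, with E18.5 replicate 1 far below and adult replicate 3 far above their groups. Adults differed from E18.5 by 0.76 ± 0.33, which did not pass (adjusted p = 0.080), with an interval from 0.06 to 1.47. It passed without E18.5 replicate 2 (adjusted p = 0.032) or adult replicate 1 (adjusted p = 0.025), and all 3 of its probes differed by 0.65 to 0.76. Eef2k, the kinase that inhibits eEF2, differed by 0.19 with an interval from -0.02 to 0.40, on a dim probe with a mean of 5.18. Eefsec, the elongation factor for selenocysteine, and the methyltransferase genes Eef1akmt1 and Eef1aknmt passed in no comparison.

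**Figure D5:**
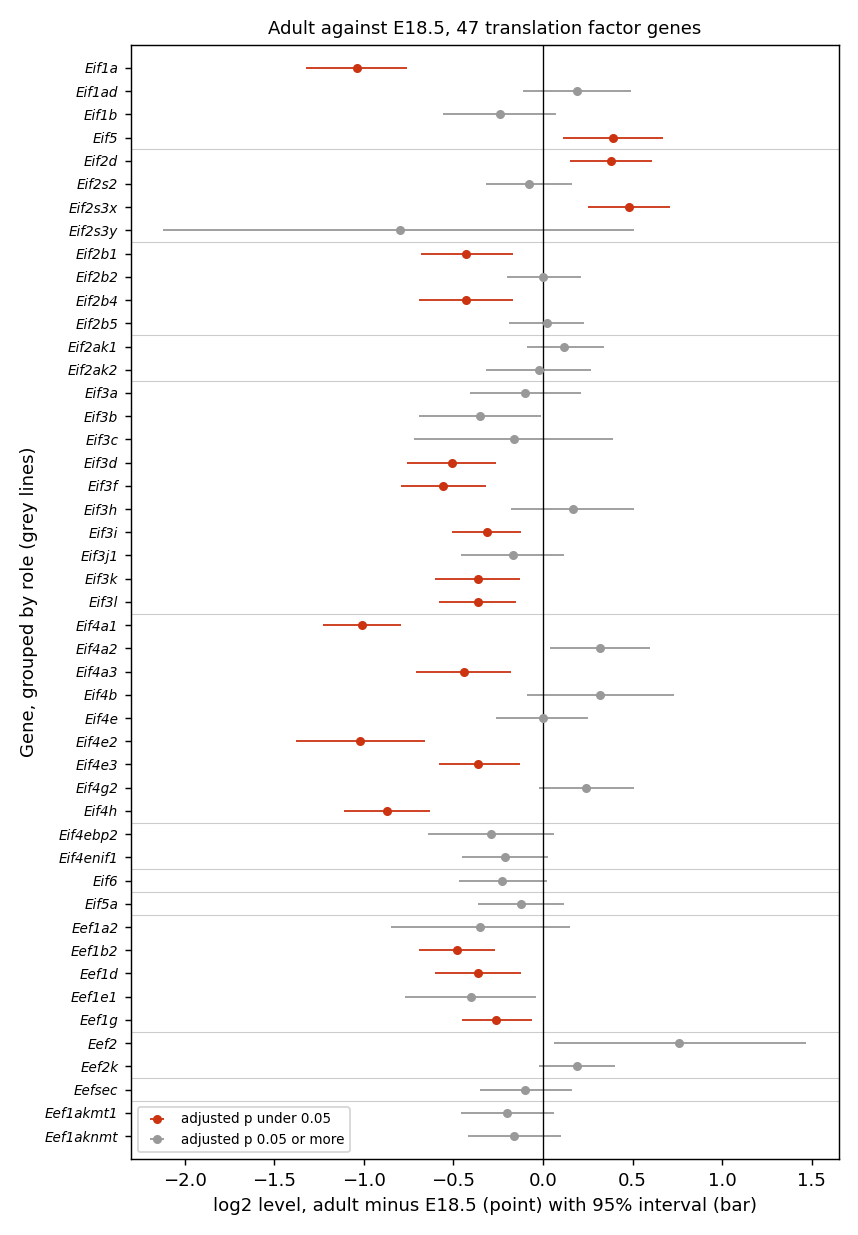
Points give the adult minus E18.5 difference (log2) of each of the 47 factors and bars its 95% interval from limma (3 adult and 4 E18.5 samples); red points passed the threshold and grey ones did not. Eif1a, Eif4e2 and Eif4a1 lie near -1, and 3 of the called factors, Eif2s3x, Eif5 and Eif2d, lie above 0.

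All 16 falls and all 3 rises from E18.5 to adult lost their calls with the acinar marker level as an added term, which left 130 of all genes called in that comparison, or 1.42%. With that term Eif1a differed by -1.42 (adjusted p = 0.090), Eif4e2 by -1.31 (adjusted p = 0.23), Eif4a1 by -0.88 (adjusted p = 0.19) and Eif4h by -0.41 (adjusted p = 0.60). Other falls came near 0, at -0.06 for Eif3d, -0.11 for Eif3l and -0.10 for Eif2b1 (adjusted p from 0.90 to 0.96), while Eif5 moved from 0.39 to 0.86 (adjusted p = 0.30). Where arrays were centred on their medians in place of quantile normalization, the median of all genes moved to -0.12, and 1 factor was higher and 20 lower. There 41.8% of all genes were called and 28.9% were lower, beside 40.8% and 22.1% in the main fit.

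Of 52 further genes of the pathway, mostly regulators of these factors, 40 were measured. From E18.5 to adult 9 rose and 8 fell, or 22.5% and 20%, near the 18.7% and 22.1% of all genes tested. In the steps between, 0 rose and 2 fell at P1, 2 rose and 3 fell at P10, and 3 rose and 1 fell in adults. These are 5%, 12.5% and 10% called, near the 5.48%, 11.7% and 13.5% of all genes. Levels here are means ± SD over 4 E18.5, 3 P1, 2 P10 and 3 adult samples, and these genes were not carried through the other settings. The part of the acinar marker level in these differences was not tested. Paip2 and Paip2b, whose proteins hold the poly(A)-binding protein away from the mRNA, rose from 8.64 ± 0.12 to 9.46 ± 0.02 and from 9.24 ± 0.08 to 10.12 ± 0.22, or 1.76-fold and 1.84-fold (adjusted p = 2.1e-05 and 2.3e-05). The genes of the poly(A)-binding proteins themselves, Pabpc1 and Pabpc4, were 1.28-fold and 1.25-fold lower (adjusted p = 0.016 and 0.013). Pdcd4, an inhibitor of the eIF4A helicase, rose 1.60-fold from 4.87 ± 0.15 to 5.55 ± 0.56 (adjusted p = 0.011) and was above background on 8 samples. Mknk1, a kinase of eIF4E, rose 1.69-fold (adjusted p = 0.0077).

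The pair left out by the symbol rule also rose over the whole span. Eif4ebp1, the main inhibitor of eIF4E, went from 7.47 ± 0.17 before birth and 7.33 ± 0.17 at P1 to 6.24 ± 0.09 at P10 and 8.70 ± 0.46 in adults, a fall of 2.13-fold to P10 (adjusted p = 0.0038) and a rise of 5.50-fold after it (adjusted p = 5.3e-06). Eif2ak3, the eIF2 kinase of the endoplasmic reticulum, was 1.56-fold higher in adults than at E18.5 (adjusted p = 0.0028). On the side of the eIF2 phosphatase, Ppp1ca, a catalytic subunit, and Ppp1r15a, its stress-induced partner, were 1.72-fold and 1.86-fold lower (adjusted p = 6.7e-05 and 0.019). Impact, an inhibitor of the kinase encoded by Eif2ak4, was 1.62-fold higher (adjusted p = 0.00087), and Abcf1, a partner of eIF2, 1.50-fold lower (adjusted p = 0.00036). Of 5 measured genes of mTORC1 and its target S6, 0 passed in any comparison by limma, and from E18.5 to adult 0 did at an unadjusted p under 0.05. Of 9 mitochondrial translation factors, 1 rose and 2 fell from E18.5 to adult, or 33.3% called beside 40.8% of all genes. Among them were Tufm, the mitochondrial elongation factor Tu, 1.35-fold lower (adjusted p = 0.0072), and Gfm2, which recycles mitochondrial ribosomes, 1.36-fold higher (adjusted p = 0.0063).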

How the data were processed

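The values were the intensity of 25697 probes on 12 arrays, as the authors deposited them, linear in scale. For their scaling, scanner software and genome build: not given in the sources used here. Per the labels' protocols, biotin-labelled cRNA was made with an Illumina kit. A second table with 24 columns was not used, because its columns match no sample. Probe names came from the platform table (23978 probes with 1 symbol, 0 with several, 1719 unnamed), and 23962 were matched to RefSeq gene IDs.

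Signals were corrected with normexp (offset 16), quantile normalized and taken as log2. The background limit of each array was set at the 0.01 tail from the mode of its log2 signals and the spread below it, with limits between 39.7 and 48.7. Each gene was represented by its brightest probe by mean, kept if above background on at least 2 samples. Genes were fitted with limma 3.58.1 (R 4.3.3), lmFit and eBayes with age as the factor, Benjamini-Hochberg adjustment over 9181 genes and a threshold of 0.05. The fit was tested on simulated data. Figures were drawn with matplotlib 3.10.9 (Python 3.11.15).

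Every member past the threshold could be named, with a fixed set of central factors, and all members were carried through the alternatives. The members, their roles, the pathway list and the marker lists were chosen with earlier results of these data known. Promoters came from RefSeq on GRCm38.p6, with 38 of 47 factors matched by symbol. Deviations from the age means of same-numbered samples correlated by over 0.1 in 4 of 15 pairs (from -0.07 to 0.28 over all 15). Unlike-numbered samples were not compared, so these values cannot tell whether the numbers mark pairs. The main fit did not use the numbers as pairs. Alternatives were other background corrections, scalings, filters and variance models, the mean of the probes, array weights, a block for the replicate number, an acinar term, only the ages compared, and each sample left out.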

Additional observations from a re-analysis of the deposited data

Results flagged for a closer look

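Eef1aknmt, which encodes a methyltransferase of eEF1A, stood at 6.67 in E18.5 replicate 4, above 6.35 to 6.40 in the other 3 E18.5 samples. The gap to the nearest sample was 0.846 of the group's range, past the 95% limit for 4 samples. It was the only one among the 47 factors, each tested in its 4 E18.5 samples, where chance gives about 1 in 20.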

How the results depend on the processing

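Of the 33 calls, 1 remained in all 11 other settings and with each sample left out, and 32 ended in at least 1. Of 155 uncalled differences, 19 passed somewhere. From E18.5 to P1, the 3 calls became 1 with median centring, 5 with array weights and 0 with the replicate block, and ranged from 0 to 3 with 1 sample left out (0 without E18.5 replicate 4 or P1 replicate 2, 1 without P1 replicate 1). From P1 to P10, the 6 became 10 with array weights and 0 with the acinar term, and ranged from 2 to 8 (3 without P1 replicate 2, 2 without P10 replicate 1, 3 without P10 replicate 2). Of all genes, 11.7% were called in the main fit, 17.2% with array weights and 0.49% with the acinar term. Leaving out P1 replicate 2, P10 replicate 1 or P10 replicate 2 gave 7.64%, 4.27% and 5.66%. From P10 to adult, the 5 became 3 with only the ages compared and ranged from 1 to 6 (3 without P10 replicate 1, 1 without P10 replicate 2). The share of all genes called was 13.5% in the main fit and 9.25% with only the ages compared. It was 7.05% without P10 replicate 1 and 5.64% without P10 replicate 2. From E18.5 to adult, the 19 became 0 with the acinar term and ranged from 14 to 20. The acinar term left 1.42% of all genes called, beside 40.8% in the main fit. The 22 of the F-test became 7 with the acinar term and ranged from 15 to 22. The share of all genes passing the F-test in these settings is not given here. With the acinar term Eif2b4 turned from -0.43 to 0.06 from E18.5 to adult (adjusted p = 0.96). With the replicate block, 19 passed the F-test, 8 from P1 to P10, 5 from P10 to adult and 18 from E18.5 to adult. In those age comparisons 12.2%, 12.2% and 39.7% of all genes passed with that block. The causes were not tested. Dim probes such as Eif3j1, Eif4b and Eefsec, above background on 8 to 10 samples, limit what can be seen.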
